A study of Mus musculus with 1 sample.

Results

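Sc-RNA Seq, the sequencing of RNA from single cells, was applied to the P0 cortex of wild-type (WT) C57BL/6 mice and used here to describe 1 kind of GABAergic barcode, defined by Adarb2, Prox1 and Sp8. The genotype label is Wildtype, the age is the day of birth, the source is cerebral cortex, and the sample title speaks of telencephalic tissue. A single library was analysed, the number of animals behind it is not given in the sources used here, and the SERPINA3 knock-in group and the triplicates that the series' design names were not analysed here. Cells were released with papain and captured with the 10x Chromium 3′ method, in which a unique molecular identifier (UMI) marks each captured transcript.

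Members were chosen by their measured UMI counts. A barcode with at least 1000 detected genes was a member if it held at least 2 UMIs of Gad1 and Gad2 together and at least 2 UMIs of Adarb2, Prox1 and Sp8 together. This last sum also had to exceed the sum of Lhx6, Sst, Nxph1 and Maf, and Isl1 and Ebf1 both had to be at 0. The rule found 215 members among 607 barcodes with at least 2 UMIs of Gad1 and Gad2, a share of 35.4% (95% exact binomial interval, Clopper-Pearson, 31.6 to 39.4). They made up 2.38% of the 9018 barcodes with at least 1000 genes, and the library held 11062 barcodes in all. Since there was 1 library, no test was possible. All intervals here are 95% intervals and cover counting error only.

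Adarb2, Prox1 and Sp8 mark cortical interneurons that arise outside the medial ganglionic eminence, the source of the Lhx6 lineage with its Sst and Pvalb cells. Adarb2 encodes a catalytically silent member of the adenosine deaminase family that acts on RNA, Prox1 a homeodomain factor that is kept in postmitotic cells of the caudal ganglionic eminence, and Sp8 a zinc-finger factor of the caudal and dorsal lateral eminences. Htr3a encodes the ionotropic serotonin receptor, and Nr2f2 a nuclear receptor of the caudal eminence. Around birth these interneurons still migrate and settle, and the Sp8 factor also marks neuroblasts bound for the olfactory bulb.

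The library held 90346034 UMIs, with a median of 8495 UMIs in barcodes with at least 1000 genes. Members had a median of 5643 UMIs (range 1453 to 62056) and 2613 genes. They were compared with the 392 other barcodes with at least 2 UMIs of Gad1 and Gad2 (median 7928 UMIs). Of these, 227 met the mirror-image rule, with at least 2 UMIs of Lhx6, Sst, Nxph1 and Maf together, more of these than of Adarb2, Prox1 and Sp8, and Isl1 and Ebf1 at 0. They are called Lhx6/Sst-gated barcodes (median 7788 UMIs). A further 16 held at least 2 UMIs of Isl1 and Ebf1, as striatal projection neurons do, and 149 remained. The other comparison was with 6894 barcodes that held at least 2 UMIs of Neurod2 and Neurod6, factors of excitatory cortical neurons, and no Gad1 or Gad2 (median 9054 UMIs). Because depth differed, shares of barcodes with a UMI are given as measured and after thinning each barcode to 2000 UMIs, which 204 members, 221 Lhx6/Sst-gated and 6605 Neurod2/Neurod6 barcodes could supply. Levels are CPM, the summed UMIs of a gene scaled to 1000000 UMIs of all genes but the mitochondrial ones.

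Excitatory transcripts were found in part of the members. In 57 of 215 (26.5%, 20.7 to 32.9) Neurod2 and Neurod6 together reached 2 UMIs. These 57 had a median of 15633 UMIs against 4887 in the other 158, and they held 53.9% of all UMIs of the members. Of 18 excitatory markers listed, 17 had a UMI in the members. The summed level of the 16 other than Neurod2 and Neurod6, which made the split, was 4637 CPM in the 57 barcodes, 707 CPM in the 158 and 6152 CPM in the Neurod2/Neurod6 barcodes. Among Lhx6/Sst-gated barcodes 69 (30.4%) held such UMIs. Whether these barcodes held RNA of 2 cells was not tested. The 158 are called Neurod-low members, and their values are given beside part of the main results. Where they are not given, a level or ratio counts all members. Among the genes with the largest differences, the ratio moved by more than 1.5 times when such barcodes were left out for 15 of 27 against Lhx6/Sst-gated barcodes, 11 of 30 against other Gad1/Gad2 barcodes and 27 of 30 against Neurod2/Neurod6 barcodes. In these 3 comparisons every such move was away from 1. Markers of microglia, vessels, oligodendrocyte precursors and red blood cells were low. Microglia markers summed to 0.557 CPM with 1 of 5 detected, endothelial and mural markers to 7.25 CPM, oligodendrocyte precursor markers to 25.6 CPM, and red blood cell markers to 26.2 CPM. Astrocyte and radial glia markers summed to 413 CPM in members, 234 CPM in Lhx6/Sst-gated and 311 CPM in Neurod2/Neurod6 barcodes, with all 10 detected in members and a range of 0 to 21929 CPM per member around a median of 142 CPM. Among Neurod-low barcodes they summed to 702 CPM in members and 355 CPM in Lhx6/Sst-gated barcodes. The Cajal-Retzius factors Trp73, Lhx5 and Lhx1 had no UMI in members.

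**Figure D1:**
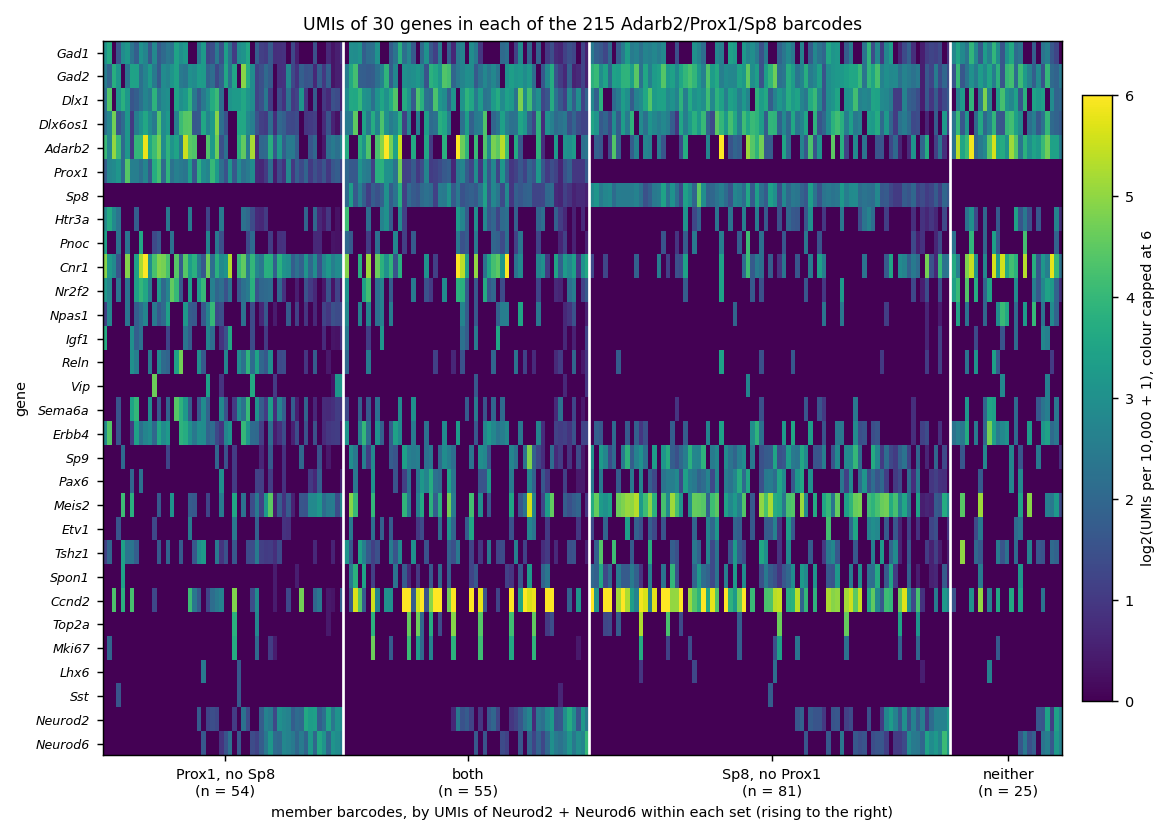
Each column is 1 of the 215 member barcodes, grouped by whether Prox1 and Sp8 had a UMI, and each row is 1 of 30 genes; colour is log2(UMIs per 10000 + 1), capped at 6. Within each set the barcodes are sorted by Neurod2 plus Neurod6, so the 57 barcodes with at least 2 such UMIs lie at the right of the sets, and Sp9, Pax6 and Ccnd2 fill both sets with Sp8, and Meis2 the set with Sp8 alone, more than the set with Prox1 alone.

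The genes of the rule are given as a description, since they chose the barcodes. Adarb2 had 974 UMIs in the members and was detected in 154 of them (71.6%), with a lowest value of 0, a median of 393 and a highest value of 8337 CPM per barcode. Prox1 had 302 UMIs in 109 members (50.7%; median 54.0, highest 2548 CPM), and Sp8 had 311 UMIs in 136 members (63.3%; median 185, highest 2211 CPM). No single gene of the 3 was present in every member. The sum over the 3 had a median of 5 UMIs, with quartiles of 3 and 10 and a highest value of 43. Of the genes that the rule held below that sum, Maf, listed here with the medial eminence genes, was still detected in 95 members (44.2%). Lhx6 was detected in 7 members, Sst in 4 and Nxph1 in 12. The 95 members with Maf had Nr2f2 at 212 CPM, Npas1 at 165 CPM and Lhx6, which the rule held low, at 2.18 CPM.

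Of the 215 members, 40 lay at the threshold of the 3 genes. These members, with exactly 2 UMIs of the 3 genes, had Htr3a at 117 CPM, Nr2f2 at 78.1 CPM and Dlx1 at 714 CPM. The 30 barcodes left out for holding only 1 such UMI, alike in the other conditions, had 35.0, 58.3 and 505 CPM. At the Gad1 and Gad2 threshold, 33 members with exactly 2 UMIs had Nr2f2 at 184 CPM, and the 51 barcodes with 1 UMI had it at 129 CPM. A lead of 1 UMI over the Lhx6, Sst, Nxph1 and Maf sum admitted 13 members, while a tie kept out 3 barcodes. Isl1 or Ebf1 kept out 10, and the limit of 1000 genes kept out 13.

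The label was checked against the 2 given markers that the rule did not use. Htr3a was detected in 85 of 215 members (39.5%; 17.6% after thinning), against 4 of 227 Lhx6/Sst-gated barcodes (1.76%; 0.452% after thinning) and 0.508% of Neurod2/Neurod6 barcodes. Its level was 91.4 CPM (78.0 to 107) in members, with a median barcode at 0 and the highest at 1659 CPM. In Lhx6/Sst-gated barcodes it was 3.29 CPM (1.32 to 6.79), and in Neurod2/Neurod6 barcodes 0.567 CPM. Nr2f2 was detected in 91 members (42.3%; 23.5% after thinning), 18.1% of Lhx6/Sst-gated barcodes (9.95% after thinning) and 2.80% of Neurod2/Neurod6 barcodes. Its level of 150 CPM (133 to 169) in members was 22.0-fold (18.8 to 25.6) that of Neurod2/Neurod6 barcodes, and 1.89-fold (1.60 to 2.24) that of all other Gad1/Gad2 barcodes. Against Lhx6/Sst-gated barcodes alone, at 127 CPM, the ratio was 1.18 (0.993 to 1.40), an interval that includes 1. It was 1.28 (1.04 to 1.58) among Neurod-low barcodes of both populations and 1.38 (1.16 to 1.64) without barcodes that held mitotic transcripts. In those barcodes 3 of 227 held 76 of the 270 Nr2f2 UMIs. Thus Htr3a separated the members from the Lhx6/Sst-gated barcodes in both level and share, whereas Nr2f2 differed in the share of barcodes and little in the pooled level.

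The members were uneven in their markers. Among the 81 members with Sp8 and no Prox1, Nr2f2 was detected in 13.6% and the factors Sp9, Pax6 and Meis2 in 77.8%, 67.9% and 85.2%. Htr3a was detected in 27 of these 81, and in 21 of the 54 with Prox1 and no Sp8. Of 227 Lhx6/Sst-gated barcodes, 98 held Sp9, 8 held Pax6 and 60 held Meis2. Meis2 was also detected in 5371 of 6894 Neurod2/Neurod6 barcodes, Pax6 in 601 and Sp9 in 57. Some members carried mitotic transcripts. The barcodes are therefore called Adarb2/Prox1/Sp8 barcodes or members below.

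**Figure D2:**
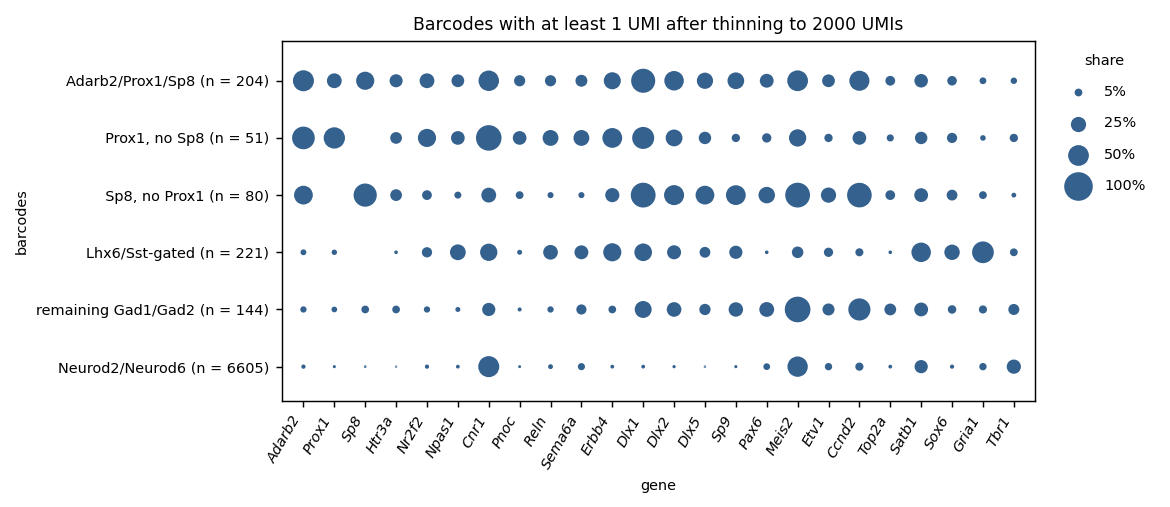
Dot area is the share of barcodes with at least 1 UMI of a gene (x axis) after each barcode was thinned to 2000 UMIs; rows are the members, 2 of their sets and 3 comparison populations, with the number thinned. Htr3a was found in 17.6% of members and 0.452% of Lhx6/Sst-gated barcodes, Satb1 in 19.1% and 43.4%, and Dlx1 in 69.1% of members and 0.545% of Neurod2/Neurod6 barcodes.

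Against the Neurod2/Neurod6 barcodes, which answer how the members differed from excitatory neurons, the members held the transcription factors of GABAergic identity. Dlx1, a homeodomain factor needed for interneuron migration and survival, stood at 489 CPM (457 to 522) in members and 2.46 CPM in Neurod2/Neurod6 barcodes, a ratio of 199 (169 to 236), and at 771 CPM in Neurod-low members. It was detected in 91.6% of members and 2.2% of Neurod2/Neurod6 barcodes. Dlx2 had a ratio of 177, Dlx5 of 220 and Sp9, a zinc-finger factor of the ganglionic eminences, of 209, and with Neurod-low members these were 284, 371 and 349. Dlx6os1, transcribed antisense to Dlx6, stood at 416 against 1.79 CPM. Strand handling is not given in the sources used here, and the separation of its reads from those of overlapping Dlx6 transcripts was not checked.

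A gene was called different if its CPM, with 10 CPM added on both sides, differed at least 2-fold, among genes with a UMI in at least 5% of barcodes on one side or the other and not used in any gate. By this rule 288 of 11089 genes were higher (2.6%) and 97 were lower (0.875%) in members than in Neurod2/Neurod6 barcodes. Without members that held at least 2 UMIs of Neurod2 and Neurod6, 517 were higher and 686 lower. With the mean of CPM over barcodes, which gives deep barcodes no more weight than shallow ones, 337 were higher and 345 lower, and after thinning 258 and 356. Of the 12 genes of GABA neuron machinery compared, 11 were higher and 0 lower, with a median log2 fold of 3.36 against 0.01 for all genes. Gad1 and Gad2 were in the gate and were not counted. Slc32a1, the vesicular GABA transporter, stood at 76.4 CPM (64.1 to 90.3) in members and 0.828 CPM in Neurod2/Neurod6 barcodes.

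Of 13 caudal eminence genes compared, 8 were higher than in Neurod2/Neurod6 barcodes and 0 lower. These were Htr3a, Nr2f2, Npas1, Npas3, Igf1, Synpr, Cxcl14 and Rgs8. Npas1, a basic helix-loop-helix factor of interneurons, had a ratio of 45.9 (36.7 to 57.5). Among receptors of migration, Erbb4, the neuregulin receptor of interneurons, stood at 168 against 2.14 CPM, and Cxcr4, the receptor that holds migrating interneurons in their streams, at 22.3 against 1.99 CPM. Nrp1, a semaphorin receptor, was lower, at 43.5 against 105 CPM, and at 10.9 CPM in Neurod-low members. The other 13 of 16 such receptors compared differed less than 2-fold when all members were counted.

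Markers of excitatory neurons were among the genes lower in members. Of 15 excitatory markers compared 7 were lower and 0 higher, the lower ones including Tbr1, Bhlhe22, Fezf2, Mef2c, Mpped1 and Tle4. Tbr1, a factor of early-born deep-layer neurons, stood at 46.3 CPM in all members, 3.63 CPM in Neurod-low members and 117 CPM in Neurod2/Neurod6 barcodes. Tle4, a corepressor of corticothalamic neurons, stood at 26.2, 7.25 and 162 CPM, and 1 member held 40.4% of its UMIs in members. Npy, a neuropeptide gene with UMIs in 35.4% of Neurod2/Neurod6 barcodes, stood at 159.98 CPM in all members and 19.3 CPM in Neurod-low members.

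Most genes of young neurons differed less than 2-fold from the Neurod2/Neurod6 barcodes when all members were counted. Of 12 compared, Elavl4 was higher, Gap43 lower and 10 differed less than 2-fold. This count was not made for Neurod-low members alone. Dcx, a microtubule-binding protein of migrating neurons, stood at 1139 CPM in members and 902 CPM in Neurod2/Neurod6 barcodes. Compared with Lhx6/Sst-gated barcodes, Igfbpl1 was higher (909.7 against 258 CPM) and Elavl2 lower among the 12. Gap43, a protein of growth cones, stood at 549.6 CPM in members, 184 CPM in Neurod-low members and 1187 CPM in Neurod2/Neurod6 barcodes.

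Against the Lhx6/Sst-gated barcodes, the question was how the members differed from barcodes gated on genes of the medial eminence lineage. Members were higher in Ccnd2, Pax6, Htr3a, Meis2 and Nfib, and lower in Satb1, Sox6 and in receptor and channel genes such as Gria1. Ccnd2, the D2 cyclin of dividing progenitors and young neuroblasts, stood at 1471 CPM (1416 to 1528) in members and 48.0 CPM (39.1 to 58.3) in Lhx6/Sst-gated barcodes, a ratio of 30.7 (25.1 to 37.7), and 47.0 (36.2 to 62.1) among Neurod-low barcodes. The median member stood at 231 CPM and the upper quartile at 2176 CPM, whereas the median and upper quartile of Lhx6/Sst-gated barcodes were 0. Pax6, a homeodomain factor of progenitors and of some olfactory bulb interneurons, stood at 147 against 6.59 CPM, and at 244 against 7.11 CPM among Neurod-low barcodes. Neither gene was a mark of the members among Gad1/Gad2 barcodes, as the remaining 149 held Ccnd2 at 1555 CPM and Pax6 at 140.2 CPM. Htr3a had a ratio of 27.8 (13.2 to 70.1), and 52.2 (17.4 to 257) among Neurod-low barcodes.

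In this comparison 268 of 11181 genes were higher (2.4%) and 299 were lower (2.67%) in members. Without barcodes that held at least 2 UMIs of Neurod2 and Neurod6 in either population, 553 were higher and 717 lower. Among 13 caudal eminence genes 6 were higher, namely Htr3a, Nfib, Nfix, Rgs8, Synpr and Cxcl14, and 1 was lower, Npas1. The median log2 fold over the 13 was 0.93, against 0.01 over all genes. Nfib and Nfix encode nuclear factor I proteins that act in late neuronal and glial differentiation. Nfib stood at 2579 CPM in members and 553 CPM in Lhx6/Sst-gated barcodes, a ratio of 4.66 (4.37 to 4.97), which became 16.6 (14.5 to 19) among Neurod-low barcodes of both. Nfix had a ratio of 2.48 (2.35 to 2.63), and 10.3 (8.77 to 12.1) among Neurod-low barcodes. Neither Nfib nor Nfix passed the 2-fold rule against Neurod2/Neurod6 barcodes when all members were counted.

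Npas1 went the other way. It stood at 98.7 CPM (84.7 to 114) in members and 237 CPM (217 to 259) in Lhx6/Sst-gated barcodes, a ratio of 0.416 (0.349 to 0.495), and 0.394 among Neurod-low barcodes. It was detected in 31.6% of members and 42.7% of Lhx6/Sst-gated barcodes (16.7% and 27.1% after thinning). Npas3, a related factor, stood at 120 and 216 CPM, which is less than a 2-fold difference. Both are listed among caudal eminence genes, and in this library both had the higher pooled level in the Lhx6/Sst-gated barcodes. The members were uneven in Npas1. It was detected in 32 of 54 with Prox1 and no Sp8, 18 of 55 with both and 6 of 81 with Sp8 and no Prox1. With neither it was detected in 12 of 25, and among Lhx6/Sst-gated barcodes in 97 of 227.

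Of the 10 medial eminence genes compared and not in the gate, 0 were higher and 6 lower in members. Satb1, a chromatin organizer needed for Sst interneurons, stood at 118 CPM in members and 410.3 CPM in Lhx6/Sst-gated barcodes, and Sox6, a factor downstream of Lhx6, at 39.6 against 141 CPM. Elfn1, a synaptic protein of Sst interneurons, stood at 13.4 against 56.9 CPM. Cux2 and Rbp4 were also lower.

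Of 11 lateral eminence and olfactory bulb genes compared, 5 were higher and 0 lower: Meis2, Pax6, Tshz1, Dlx2 and Gsx2. Dlx2 and Gsx2 were also in the list of GABA neuron machinery, so they were not particular to the lateral eminence list. Meis2, a homeodomain factor of lateral eminence derivatives, stood at 621 CPM (585 to 659) in members and 124 CPM (110 to 140) in Lhx6/Sst-gated barcodes, and the ratio among Neurod-low barcodes was 14.6. It was no mark of the members, as Neurod2/Neurod6 barcodes held it at 429 CPM and the remaining 149 Gad1/Gad2 barcodes at 988 CPM. Gsx2, a progenitor factor, had 18 UMIs in members and 0 in Lhx6/Sst-gated barcodes. Of 6 striatal projection neuron markers compared, 0 were higher and 2 lower (Tac1 and Bcl11b). Th, which makes dopamine in periglomerular cells of the olfactory bulb, had no UMI in members, where a floor of 3 counts lies at 1.67 CPM.

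Part of the receptors and channels stood lower in the members. Of 31 compared, 12 were lower, 1 was higher (Htr3a) and 18 differed less than 2-fold, with a median log2 fold of -0.70 against 0.01 for all genes. Gria1, an AMPA receptor subunit, stood at 22.3 CPM (15.9 to 30.4) in members and 343 CPM (319 to 369) in Lhx6/Sst-gated barcodes, and was detected in 13.5% and 88.1% of them (3.43% and 55.2% after thinning). Its level over all members was close to that of Neurod2/Neurod6 barcodes, 23.1 CPM, with a ratio of 0.965 (0.687 to 1.32). That level counts the 57 members with at least 2 UMIs of Neurod2 and Neurod6, which held 53.9% of the members' UMIs. Grin3a, an NMDA receptor subunit, stood at 12.8 against 225 CPM, Cacna2d2, a calcium channel subunit, at 6.13 against 144 CPM, and Grik1, a kainate receptor subunit, at 8.92 against 69.6 CPM.

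Slc12a5, which encodes the chloride exporter KCC2, stood at 9.48 CPM (5.52 to 15.2) in members, 52.7 CPM (43.4 to 63.4) in Lhx6/Sst-gated barcodes and 9.69 CPM in Neurod2/Neurod6 barcodes. Slc12a2, which encodes the chloride importer NKCC1, stood at 34.0, 31.5 and 52.5 CPM. Thus among these 2 transporters only Slc12a5 passed the 2-fold rule against Lhx6/Sst-gated barcodes. Gria2, another AMPA receptor subunit, stood at 1006 CPM in members and 909 CPM in Lhx6/Sst-gated barcodes. The lower level was thus not shared by every receptor when all members were counted.

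**Figure D3:**
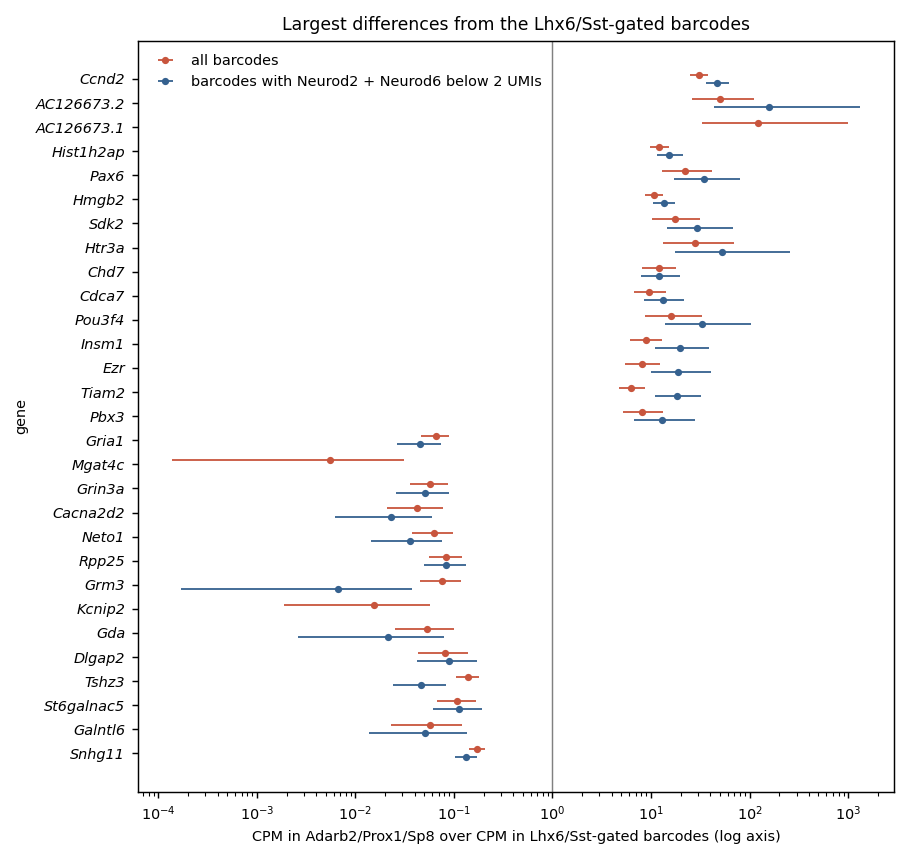
Ratio of CPM in the members to CPM in Lhx6/Sst-gated barcodes, on a log axis, for 29 of the genes with the largest differences in each direction; points are ratios and bars 95% conditional-binomial intervals, for all barcodes and for barcodes with fewer than 2 UMIs of Neurod2 and Neurod6. A gene at 0 in 1 population has no point; each of the 29 genes lies on the same side of 1 in both sets where both are drawn.

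The largest differences also held genes outside the lists. Higher in members were Sdk2, a homophilic adhesion molecule, at 123 against 7.06 CPM, Chd7, a chromatin remodeler, at 163 against 13.6 CPM, Pou3f4, a POU-domain factor, at 82.5 against 5.18 CPM, and Insm1, a zinc-finger factor of neurogenic progenitors, at 145 against 16.5 CPM. Cdca7, Ezr, Tiam2 and Pbx3 belonged to the same group, with ratios of 6.33 to 9.65. Sdk2, Pou3f4 and Tiam2 were also among the 15 genes with the largest fold higher against all other Gad1/Gad2 barcodes. Chd7, Insm1, Cdca7, Ezr and Pbx3 were not. The symbols of unnamed transcripts, AC126673.2 and AC126673.1, stood at 211 and 114 CPM in members and at 4.24 and 0.941 CPM in Lhx6/Sst-gated barcodes. Lower in members were Mgat4c, Neto1, Rpp25, Grm3, Kcnip2, Gda, Dlgap2, Tshz3, St6galnac5, Galntl6 and Snhg11, with ratios of 0.00548 to 0.171. Neto1, an auxiliary subunit of kainate receptors, stood at 11.1 against 179.75 CPM, and Grm3, a metabotropic glutamate receptor, at 11.1 against 149 CPM.

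Neuropeptides and other subtype molecules were mostly sparse at this age. Of 14 compared with Lhx6/Sst-gated barcodes, Vip and Pnoc were higher and Calb1, Cort and Reln lower. Over all genes in this comparison 2.4% were higher and 2.67% lower. Pnoc, the precursor of nociceptin, stood at 61.3 CPM (50.4 to 73.9) in members and 8.47 CPM (5.02 to 13.4) in Lhx6/Sst-gated barcodes, and was detected in 30.2% and 2.64% of them. Vip, the peptide of a later interneuron class, had 128 UMIs in members, but only 14 members held it, and 3 of them held 100 of the UMIs. Reln, a secreted glycoprotein of several interneuron types, stood at 77.5 against 176 CPM. Cort had 0 UMIs in members and stood at 65.9 CPM in Lhx6/Sst-gated barcodes, at least 39.4-fold higher there by a floor of 3 counts over the members. Lamp5 and Pvalb had no UMI in either population. Of 17 migration and guidance receptors compared with the same barcodes, Ackr3 and Cdh13 were lower and 0 higher.

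Compared with all 392 other Gad1/Gad2 barcodes, which join Lhx6/Sst-gated, striatal-gated and remaining barcodes, fewer genes passed the rule. Here 59 of 11204 genes were higher (0.527%) and 149 were lower (1.33%). Without barcodes that held at least 2 UMIs of Neurod2 and Neurod6, 173 were higher and 504 lower. Htr3a was 16.4-fold higher (10.4 to 27.2), a ratio that fell to 8.59 after thinning. It was 6.86 with at least 3 UMIs of Adarb2, Prox1 and Sp8, where members with exactly 2 were counted among the other barcodes. Pnoc was 9.61-fold higher, Sorcs3, a sortilin family receptor, 7.53-fold, Rgs16, a regulator of G protein signalling, 5.24-fold, and Dlx6os1 4.62-fold. Of 13 caudal eminence genes, Htr3a, Nfib and Cnr1 were higher and 0 were lower. Of these, Nfib and Cnr1 did not pass the 2-fold rule against Neurod2/Neurod6 barcodes, of which 5842 of 6894 held Cnr1. Of 12 lateral eminence genes, Dlx2 and Pax6 were higher, and Foxp2 and Eomes lower. Npas1 had a ratio of 0.722 (0.605 to 0.858), which ran from 0.539 to 0.9795 under the alternatives tried.

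Dividing barcodes were found in each population. A barcode was counted as dividing if Top2a, Mki67, Cdk1, Ccnb1, Cenpf and Ube2c together had at least 2 UMIs, a definition set after the data were seen. Of 215 members 28 were dividing (13.0%, 8.83 to 18.3), against 4 of 227 Lhx6/Sst-gated barcodes (1.76%, 0.482 to 4.45), 39 of the 149 remaining Gad1/Gad2 barcodes (26.2%, 19.3 to 34.0), 3 of 16 striatal-gated barcodes (18.8%, 4.05 to 45.6) and 1.60% of Neurod2/Neurod6 barcodes. Dividing members were deeper, with a median of 9784 UMIs against 5244. Of 10 cell cycle genes 8 were at least 2-fold higher in members than in Lhx6/Sst-gated barcodes, among the 2.4% of all genes that were so. Top2a, a topoisomerase of mitosis, stood at 209 against 15.5 CPM, where 1 Lhx6/Sst-gated barcode held 97.0% of the Top2a UMIs of that population. Against all other Gad1/Gad2 barcodes 0 of the 10 passed the 2-fold rule in either direction.

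Dividing members stood higher in Ccnd2, Sp9, Pax6 and Gsx2 and lower in Htr3a, Nr2f2, Npas1, Erbb4 and Cnr1 than the other members. The 16 caudal eminence genes listed, which include the rule genes, summed to 5709.5 CPM in the dividing and 8072 CPM in the other members. The same sum was 5457 CPM in Neurod2/Neurod6 barcodes and 5354 CPM in the 149 remaining Gad1/Gad2 barcodes, so it was not particular to the members. In dividing members Ccnd2 stood at 4054 CPM against 930.3 CPM in the 187 others. Sp9 stood at 396 against 148 CPM, Pax6 at 354 against 103 CPM, and Gsx2 at 41.9 against 3.37 CPM. Conversely, Htr3a stood at 16.1 against 107 CPM, Nr2f2 at 12.9 against 179 CPM, Erbb4 at 22.5 against 199 CPM and Cnr1, a cannabinoid receptor, at 119 against 776 CPM. Npas1 had no UMI in the 28 and stood at 119 CPM in the others. Gad2 differed little, at 573 against 451 CPM. Of the rule's own genes, Sp8 was detected in 92.9% of dividing members and Adarb2 in 25%. Without dividing barcodes in either population, 164 genes were higher in members than in Lhx6/Sst-gated barcodes, and Ccnd2 still had a ratio of 28.0 and Pax6 of 16.5, whereas Hist1h2ap, a histone gene, went from 12.1 to 1.38.

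The members fell into sets by Prox1 and Sp8. Prox1 without Sp8 was found in 54 members (25.1%, 19.5 to 31.5), Sp8 without Prox1 in 81 (37.7%, 31.2 to 44.5), both in 55 (25.6%, 19.9 to 32.0) and neither in 25 (11.6%, 7.67 to 16.7), which then held Adarb2 only. After thinning to 2000 UMIs the shares were 18.6%, 32.4%, 4.90% and 44.1% of 204, so the share with both fell with depth. The rule requires 2 UMIs over the 3 genes, which itself ties their detection together, and the sets differed in depth, with median UMIs of 6904, 5352, 6752 and 4581. Adarb2 was detected in 87.0% of the set with Prox1 alone and in 59.3% of the set with Sp8 alone. Neurod2 and Neurod6 reached 2 UMIs in 20 of 54, 16 of 81, 16 of 55 and 5 of 25.

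Members with Prox1 alone had the higher Nr2f2, Npas1, Reln and Sema6a, and those with Sp8 alone the higher Sp9, Pax6, Meis2 and Ccnd2. In the set with Prox1 alone Nr2f2 stood at 202 CPM (168 to 242), against 31.7 CPM (19.1 to 49.5) with Sp8 alone, a ratio of 6.38 (3.92 to 11.0), which was 18.6 among Neurod-low members. It was detected in 75.9% and 13.6% of barcodes (37.3% and 8.75% after thinning). Sema6a, a transmembrane semaphorin, stood at 216 against 13.4 CPM, Npas1 at 141 against 15 CPM, Reln at 151 against 18.4 CPM and Igf1, a growth factor of some interneurons, at 73.0 against 6.68 CPM. Among Neurod-low members the ratio was 21.2 (8.52 to 68.0) for Reln, 14.3 (6.03 to 41.1) for Npas1 and 18.9 (8.68 to 48.9) for Sema6a. Of 18 of the largest differences between the sets, 9 moved by more than 1.5 times in this way and 0 crossed 1. Thsd7a, Hacd1 and Rwdd3 were also among the 10 largest differences. Prox1os, transcribed antisense to the rule gene Prox1, followed the choice of the set. Fabp7, a lipid-binding protein of radial glia, belonged here as well at 362 against 45.1 CPM, but 1 member held 79.8% of its UMIs.

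In the set with Sp8 alone Sp9 stood at 341 CPM (295 to 391), against 33.2 CPM (20.3 to 51.3) with Prox1 alone, and was detected in 77.8% and 20.4% of barcodes. Ccnd2 stood at 2222 against 274 CPM, Pax6 at 249 against 46.5 CPM and Meis2 at 1070.0 against 337 CPM. Spon1, a secreted extracellular matrix protein, stood at 195 against 8.30 CPM, and Tiam2, an activator of Rac, at 317 against 24.9 CPM. Sdk2, Cdca7, Rnd3 and Slc4a4 were also among the 10 largest differences, with ratios of 0.0736 to 0.178. Etv1, an ETS factor of olfactory bulb neuroblasts among other cells, stood at 130.2 against 24.9 CPM. Without dividing barcodes, by the definition above, the ratio of Prox1 alone to Sp8 alone was 0.11 for Sp9 and for Ccnd2, and 5.10 for Nr2f2. The 68 members with Sp8 alone that were kept still had a median of 1273 CPM of Ccnd2 per barcode. Whether cell division accounts for the differences between the sets was not tested.

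Htr3a, Pnoc and Dlx1 differed less between these sets when all members were counted. Htr3a stood at 74.7 CPM (54.5 to 99.9) with Prox1 alone and 71.8 CPM (51.9 to 96.7) with Sp8 alone, a ratio of 1.04 (0.669 to 1.62). Among Neurod-low members it stood at 168 CPM (112 to 243) and 97.4 CPM (67.0 to 137), a ratio of 1.73 (1.01 to 2.95). Pnoc stood at 61.4 and 45.1 CPM, a ratio of 1.36 (0.807 to 2.33), which was 3.48 (1.85 to 6.74) among Neurod-low members. Dlx1 was found in 88.9% and 95.1% of barcodes, at 300.3 and 517 CPM, and at 697 and 752 CPM among Neurod-low members.

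The remaining sets stood apart in different ways. Members with both genes had Nr2f2 at 172 CPM and Npas1 at 95.3 CPM together with Sp9 at 230.0 CPM, Pax6 at 168 CPM and Ccnd2 at 2304 CPM, and 13 of the 55 were dividing (23.6%, 13.2 to 37.0). The Nr2f2 and Ccnd2 UMIs lay largely in different barcodes, and 8 members of the set held both genes. Of the set, 20 of the 55 held at least 10 UMIs of Ccnd2, a minimum chosen after the data were seen, and these 20 held 1083 of the 1112 Ccnd2 UMIs and 1 of the 83 Nr2f2 UMIs of the set. The 25 members with Adarb2 only had Nr2f2 at 411 CPM (299.7 to 549.7), Npas1 at 338 CPM (238 to 466) and Cnr1 at 1470 CPM (1251 to 1715), and 0 of 25 were dividing (0 to 13.7%). One member held 31.1% of those Cnr1 UMIs. These levels were above those of the other sets when all members were counted, but among Neurod-low members the set with Prox1 alone stood at 493 CPM Nr2f2 and 1256 CPM Cnr1 and the set with Adarb2 only at 399 and 1238 CPM. Npas1 stood at 371 CPM with Adarb2 only and 252 CPM with Prox1 alone. These rest on 27 UMIs, of which 3 barcodes held 17, and on 42 UMIs, and no interval of their ratio was computed. Detection in single barcodes differed between pairs of genes from opposite sets. Npas1 was detected in 68 members, of which 10 also held Pax6 (detected in 94) and 13 also held Sp9 (detected in 114). Nr2f2 was detected in 91 members, of which 19 also held Pax6 and 30 also held Sp9. After thinning, Npas1 was found with Pax6 in 1 member and with Sp9 in 0, and Nr2f2 with Pax6 in 3 and with Sp9 in 10 of 204.

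**Figure D4:**
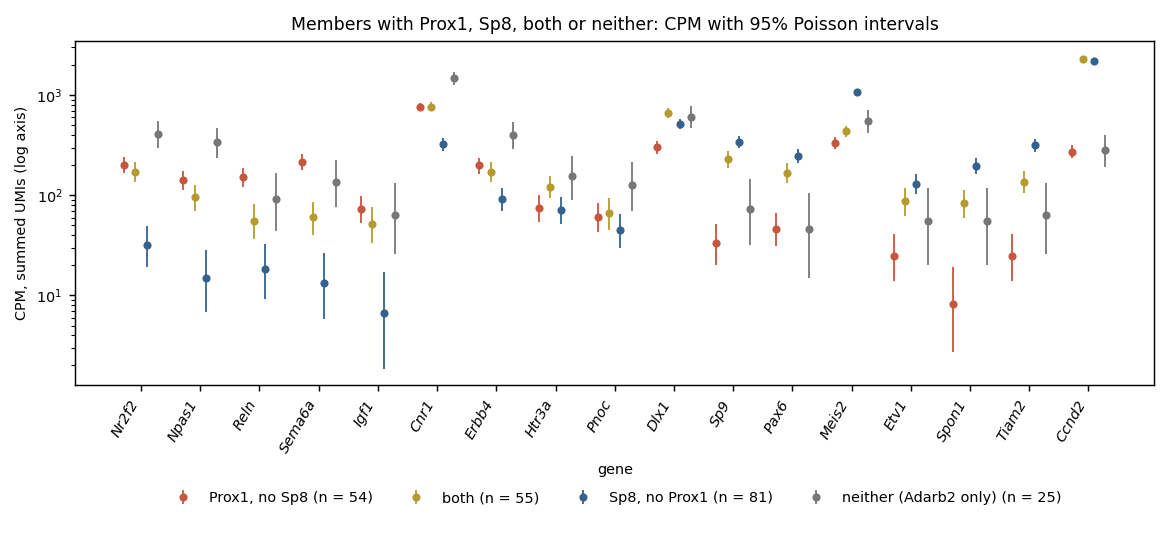
CPM of 17 genes (x axis), on a log axis, in members with Prox1 and no Sp8, with both, with Sp8 and no Prox1, and with neither; bars are 95% exact Poisson intervals. Nr2f2, Npas1, Reln, Sema6a and Igf1 stood lowest in the set with Sp8 alone, Sp9, Spon1 and Tiam2 lowest with Prox1 alone, and Htr3a stood at 74.7 CPM with Prox1 alone and 71.8 CPM with Sp8 alone (168 and 97.4 CPM among Neurod-low members, not drawn).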

How the data were processed

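The deposited values were raw UMI counts per gene and barcode, with a second table of totals and detected genes, which equalled the sums over the count table in all 11062 barcodes. The authors had the reads processed with Cell Ranger by a company, and the submitters' processing notes name STAR, Cell Ranger (version 2), Seurat and the build mm9. How cells were called and with which annotation is not given in the sources used here, and no coordinates are given.

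The members and the gene lists were chosen with earlier results of these data known. UMIs were summed over the barcodes of a population and divided by the sum over all genes but the 37 mitochondrial ones. Intervals were exact Poisson for levels, conditional binomial for ratios and exact binomial for shares, at 95%. Genes were named if they were in a gate, a marker list or 1 of 19 lists, or among the 15 largest differences per direction in a comparison (10 between the Prox1 and Sp8 sets), if detected in at least 25% of the higher population, leaving out gate, mitochondrial and ribosomal protein genes and Gm or Rik symbols. Other genes named were chosen after their values were seen. Some genes that met this rule are not reported here. Thinning drew 2000 UMIs per barcode without replacement, after which 11 members were too shallow to keep.

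No doublet caller was run, and barcodes with at least 2 UMIs of Neurod2 and Neurod6 were left out as an alternative instead. Alternatives changed the gates, the minimum number of genes, the added CPM (1 and 50 in place of 10), the summing, the mitochondrial genes and the filter on detection. In simulated counts for the comparison with the other Gad1/Gad2 barcodes (11204 genes), 197 of 200 changed genes and 0 of 11004 unchanged genes were called. Whether the rule does as well in the measured counts, where single barcodes held most UMIs of some genes, was not tested. How well the rule does for genes at low levels, or near the 2-fold limit, was not tested either. Python 3.11.15, numpy 2.4.6, scipy 1.17.1, pandas 2.3.3 and matplotlib 3.10.9 were used.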

Additional observations from a re-analysis of the deposited data

How the results depend on the processing

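The counts of genes in the 3 comparisons, the shares of members and of their 4 sets, and the ratios of Htr3a, Nr2f2 and Npas1 to other Gad1/Gad2 barcodes were recomputed under those alternatives that could change them, and 104 of 147 values stayed within 1.5 times (counts) or within the counting interval (shares and ratios) and 43 did not; no ratio of Htr3a, Nr2f2 or Npas1 crossed 1. Other levels and ratios were recomputed only without Neurod2/Neurod6-positive or dividing barcodes. The alternative without dividing barcodes was chosen after seeing the data. In the following, counts of genes higher and lower in members are given in the order other Gad1/Gad2, Lhx6/Sst-gated and Neurod2/Neurod6 barcodes. Without barcodes with at least 2 UMIs of Neurod2 and Neurod6, 173, 553 and 517 genes were higher and 504, 717 and 686 lower, the share of members was 39.8% and the Npas1 ratio 0.6005. With 1 CPM added, 207, 732 and 601 were higher and 487, 758 and 403 lower, and with 50 CPM added 15, 58 and 79 were higher and 19, 67 and 14 lower. With at least 3 UMIs of Gad1 and Gad2, 230 genes were lower than in other Gad1/Gad2 barcodes and 149 lower than in Neurod2/Neurod6 barcodes, the share was 39.65%, the Nr2f2 ratio 1.484 and the Npas1 ratio 0.539. With at least 3 UMIs of Adarb2, Prox1 and Sp8, 38 genes were higher than in other Gad1/Gad2 barcodes, the share was 28.83%, the Htr3a ratio 6.862 and the Npas1 ratio 0.8656. Members with exactly 2 such UMIs were counted among the other Gad1/Gad2 barcodes under this alternative. With the mean of CPM per barcode, 89 genes were higher and 227 lower than in other Gad1/Gad2 barcodes, 345 were lower than in Neurod2/Neurod6 barcodes, the Nr2f2 ratio was 2.419 and the Npas1 ratio 0.9795. After thinning, 107 genes were higher than in other Gad1/Gad2 barcodes and 356 lower than in Neurod2/Neurod6 barcodes, the Htr3a ratio was 8.591 and the Npas1 ratio 0.9066, and 18.63%, 4.902% and 44.12% of members held Prox1 alone, both or neither. With at least 2000 genes 7.471% held neither. Without dividing barcodes 164 genes were higher than in Lhx6/Sst-gated barcodes. The cause of these shifts was not tested. The shares of the 4 sets changed after thinning, and the median member held 1 UMI of Prox1 and 1 of Sp8. A single library leaves no samples to pair.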

Other observations

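Of 9 immediate early and dissociation genes compared with Lhx6/Sst-gated barcodes, 5 were lower in members, namely Fos, Fosb, Fosl2, Junb and Npas4, 0 were higher and 4 differed less than 2-fold, while 2.67% of all genes were lower. Fos stood at 65.2 CPM (53.9 to 78.2) in members, 253 CPM (232 to 275) in Lhx6/Sst-gated barcodes and 47.8 CPM in Neurod2/Neurod6 barcodes, and was detected in 23.7%, 55.9% and 21.5% of them. Jun, at 205, 230.0 and 101 CPM, did not pass the 2-fold rule against either population. None of the 8 genes of this list compared with Neurod2/Neurod6 barcodes differed 2-fold when all members were counted.

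Glo1, which encodes glyoxalase 1 and which the study followed in other experiments, stood at 49.6 CPM (39.8 to 61.1) in members, 48.0 CPM in Lhx6/Sst-gated barcodes and 44.9 CPM in Neurod2/Neurod6 barcodes. Hagh, the next enzyme of that pathway, stood at 33.4, 39.5 and 33.6 CPM. Serpina3n had no UMI in 215 members, where a floor of 3 barcodes is a share of 1.40%. The lack of UMIs at this depth sets no limit on cells that express it.

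Ackr3, an atypical receptor for the chemokine that Cxcr4 binds, had UMIs in 0.93% of members and 21.1% of Lhx6/Sst-gated barcodes (0% and 9.05% after thinning), at 1.11 and 31.5 CPM. Cxcr4 itself stood at 22.3 and 22.6 CPM in these populations.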
